A study of Homo sapiens with 9 samples.

Results

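TXNIP, its relatives of the arrestin-domain family (ARRDC1, ARRDC2, ARRDC3 and ARRDC4), the transcription factor gene MLXIP, DDIT4 and the sestrin genes SESN1, SESN2 and SESN3 were followed in THP-1 cells, a human monocytic leukemia line that grows in suspension. The members were all 14 probes, of 48803 on the array, whose symbol in the platform annotation is one of these 10 names. The names were chosen by known function but also on earlier results from these same arrays, that is, on the differences between states. Those differences are therefore given as a description of the members and without p-values. Total RNA of fresh cells, of cells labelled frozen and of cells labelled replated was hybridised to Illumina bead arrays, with 3 arrays per state and 9 in all. The series title places the RNA extraction in liquid nitrogen stocks, and the labels give neither freezing, thawing and culture times nor any drug or genetic change. All cells are of this 1 line, whose clonal state is not described. The design text calls the replicates biological without saying how the cultures were separated, so the errors below may hold technical as well as biological spread.

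TXNIP binds reduced thioredoxin and, like other alpha-arrestins, ties membrane proteins to ubiquitin ligases, which lowers glucose transporters at the cell surface. Its gene is switched on when glucose 6-phosphate accumulates, through MondoA (the product of MLXIP) paired with MLX at a carbohydrate response element, a pair of E-boxes in the promoter. DDIT4, also called REDD1, and the sestrins restrain the growth kinase complex mTORC1. DDIT4 does so through the TSC complex under hypoxia, energy stress or glucocorticoids, and the sestrins through the GATOR complexes that report amino acids. In myeloid cells TXNIP is also known as a partner of the NLRP3 inflammasome.

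TXNIP and DDIT4 moved alike between states, and ARRDC3 on its brighter probe moved the opposite way in replated cells. ARRDC4 is the paralog known to share glucose control with TXNIP. The upstream sequences of these 4 members are therefore shown. Each is the 250 bases before a gene start in the RefSeq promoter table of GRCh38.p14, read 5′ to 3′ on the strand of the gene. They lie at chr1:145996580-145996829 (minus strand) for TXNIP, chr10:72273674-72273923 (plus) for DDIT4, chr15:97960453-97960702 (plus) for ARRDC4 and chr5:91383318-91383567 (minus) for ARRDC3. Capitals mark letters that matched any of 6 motifs searched on both strands: the E-box CACGTG, a pair of CACGNG boxes with 5 bases between them, the CCAAT box, the C/EBP-ATF element TGATGNAA, the FOXO element GTAAACA and the hypoxia element core ACGTG, which overlaps the E-box.
TXNIP: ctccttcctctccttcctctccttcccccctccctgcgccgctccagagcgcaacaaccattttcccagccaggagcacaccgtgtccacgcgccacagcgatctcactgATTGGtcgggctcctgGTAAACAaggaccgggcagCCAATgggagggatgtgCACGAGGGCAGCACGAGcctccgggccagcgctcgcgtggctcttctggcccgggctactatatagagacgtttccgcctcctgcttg
DDIT4: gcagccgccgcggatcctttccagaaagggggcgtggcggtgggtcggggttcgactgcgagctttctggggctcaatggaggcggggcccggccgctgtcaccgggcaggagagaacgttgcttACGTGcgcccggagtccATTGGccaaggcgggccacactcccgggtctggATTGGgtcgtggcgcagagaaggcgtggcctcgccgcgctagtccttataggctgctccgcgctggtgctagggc
ARRDC4: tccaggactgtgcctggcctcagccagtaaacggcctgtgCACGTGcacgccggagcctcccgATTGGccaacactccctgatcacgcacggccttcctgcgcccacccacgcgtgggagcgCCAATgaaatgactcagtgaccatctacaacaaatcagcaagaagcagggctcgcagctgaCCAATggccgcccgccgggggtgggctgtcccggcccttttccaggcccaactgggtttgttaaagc
ARRDC3: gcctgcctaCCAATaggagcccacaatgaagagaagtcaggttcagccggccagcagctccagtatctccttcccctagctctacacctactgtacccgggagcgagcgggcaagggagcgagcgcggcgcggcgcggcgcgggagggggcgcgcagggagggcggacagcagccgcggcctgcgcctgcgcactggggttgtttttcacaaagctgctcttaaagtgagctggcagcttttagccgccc

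The TXNIP window held the pair of E-boxes as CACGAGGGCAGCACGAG, from 88 to 72 bases before the start. Such a pair, with both boxes in the same direction and a fixed gap, stood in 16 of 35116 windows of the table (0.0456%). It stood in 1 of the 15 windows of the members. Pairs with 1 box inverted or with another gap were not searched for. The search therefore cannot show that ARRDC4 or another member lacks a carbohydrate response element, and the low share holds for this narrow pattern only. The TXNIP window also held a FOXO element from 124 to 118 bases before the start, a motif found in 2.98% of all windows, and 2 CCAAT boxes. A second TXNIP start in the table, with the window chr1:145995745-145995994, held only an ACGTG core. The DDIT4 window held 2 CCAAT boxes and 1 ACGTG core, which 18.5% of all windows hold. ARRDC4 had a full E-box from 210 to 205 bases before the start (6.34% of all windows) and 3 CCAAT boxes. The ARRDC3 window held 1 CCAAT box, and the window of its other start, chr5:91380098-91380347, a FOXO element. CCAAT boxes were in 10 of the 15 member windows and in 32.0% of all windows. No member window held the C/EBP-ATF element (3.14% of all). These are matches of letters and do not show that a factor binds there.

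Between 16898 and 17679 probes per array lay above the negative controls of their array (detection p under 0.05). Probes detected on at least 3 of the 9 arrays were tested, which left 18102 probes and 10 of the 14 member probes. Of the 13 monocyte and myeloid markers with a named probe, each had at least 1 probe detected on 9 of 9 arrays. The cell type label requires this, and CD14, CSF1R, SPI1 and CD68 were among them. A further probe each of CD14, PTPRC and CD36 was detected on 0 of 9 arrays. Of 13 genes taken as markers of other cell types, 8 were detected on no array. By the most often detected probe, 3 were detected on some arrays and 2, NCAM1 and PECAM1, on all 9. No other cell type is read from the signal of these 2 genes. The array is a bulk measurement, in which fewer cells of a kind and less RNA per cell cannot be told apart. LYZ, a monocyte product, rose 1.81-fold in replated against fresh cells (limma adjusted p = 6.99e-05) and CD36 1.31-fold (adjusted p = 0.0202), as 2 of 13 myeloid markers, while CD14 differed by 0.10 (adjusted p = 0.499). Before normalization, the summed signal of the myeloid markers ran from 24404.4 to 27165.9 intensity units on fresh, from 20392.0 to 25681.9 on frozen and from 27688.4 to 30866.0 on replated arrays. LYZ alone averaged 2631.7 on fresh and 4597.1 on replated arrays. The mean of all probes ran from 341.1 to 367.1 on fresh and from 299.6 to 362.9 on frozen arrays. After normalization the markers had a median log2 difference of -0.02 in frozen against fresh cells, with 0 called. The part of the marker signal in the member differences was not tested.

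**Figure D1:**
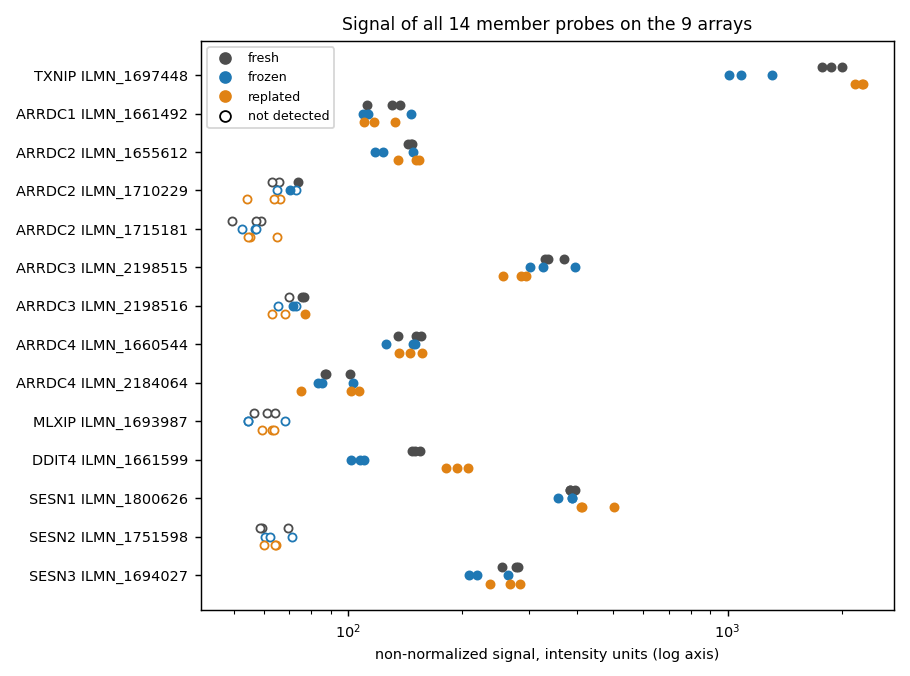
Non-normalized signal of all 14 member probes (intensity units, log axis), with 1 point per array, coloured by state, and open points where the probe was not detected. The probes of MLXIP and SESN2 were detected on none of the 9 arrays, and the TXNIP points of the frozen arrays reach 1307.3 at most while those of the other arrays start at 1770.6.

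TXNIP transcript was lowest in frozen and highest in replated cells, with no overlap between any 2 states. Its probe, ILMN_1697448, read 2003.7, 1877.9 and 1770.6 intensity units before normalization on fresh replicates 1, 2 and 3. On the frozen arrays it read 1307.3, 1006.9 and 1086.7, and on the replated arrays 2261.0, 2169.5 and 2274.2. The detection score, which is 1 minus the detection p, was 1 on all 9 arrays. After background correction and quantile normalization the mean log2 signal was 10.19 ± 0.031 in frozen, 10.78 ± 0.057 in fresh and 11.08 ± 0.051 in replated cells (SD, n = 3). Frozen cells were thus lower than fresh cells by 1.51-fold, a log2 difference of -0.59 ± 0.065, where ± is the standard error from the fit across all probes. Replated cells were 1.23-fold higher than fresh cells (0.29 ± 0.065) and 1.85-fold higher than frozen cells (0.89 ± 0.065). The last difference shares its arrays with both others and adds no separate evidence. The gene spans 4145 bases on chromosome 1, from 145992435 to 145996579 in GRCh38.p14.

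DDIT4 followed the same order with a wider span. Probe ILMN_1661599 read 154.8, 150.2 and 147.7 intensity units on the fresh arrays, 110.1, 107.4 and 101.8 on the frozen arrays and 180.6, 193.3 and 206.5 on the replated arrays. The 3 states did not overlap, and every frozen array lay below every fresh array and every replated array above. Detection scores ran from 0.99209 to 1. Mean normalized log2 signal was 6.09 ± 0.18 in frozen, 6.69 ± 0.042 in fresh and 7.21 ± 0.053 in replated cells (SD, n = 3). DDIT4 was 1.52-fold lower in frozen than in fresh cells (-0.60 ± 0.090), 1.43-fold higher in replated than in fresh cells (0.51 ± 0.090) and 2.17-fold higher in replated than in frozen cells (1.12 ± 0.090). The size of the last difference depended on the processing, at 1.38 on the log2 scale on the values processed by the authors and 0.78 with no background correction.

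**Figure D2:**
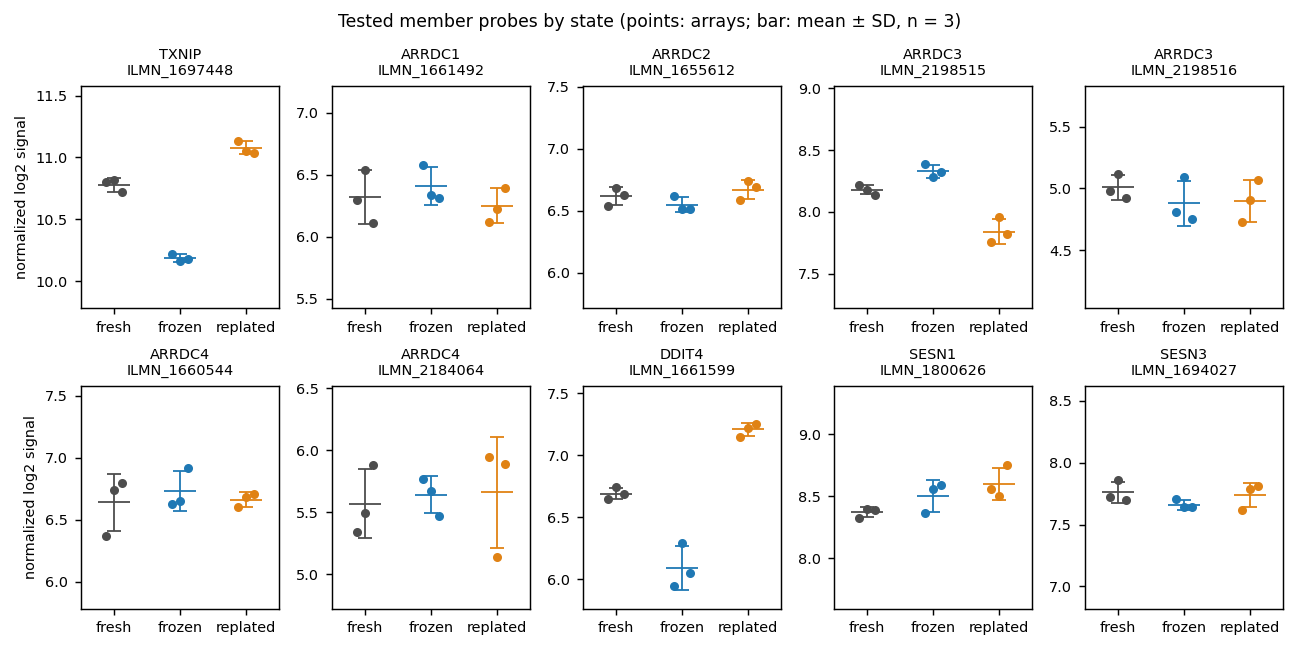
Normalized log2 signal of the 10 tested member probes in fresh, frozen and replated cells, with points for arrays and bars for mean ± SD (n = 3), and the same height of axis in every panel. TXNIP and DDIT4 rise from frozen over fresh to replated arrays, ARRDC3 on probe ILMN_2198515 falls in that order, and the other panels overlap between most states.

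ARRDC3 is an arrestin-domain protein that links receptors such as the beta2-adrenergic receptor to NEDD4 ubiquitin ligases. In replated cells it ran against TXNIP on its brighter probe. Probe ILMN_2198515 gave a normalized log2 signal of 8.22, 8.18 and 8.14 on the fresh arrays, 8.39, 8.28 and 8.32 on the frozen arrays and 7.76, 7.96 and 7.82 on the replated arrays. On this scale the states again did not overlap, with replated cells lowest. Replated cells were 1.26-fold lower than fresh cells (-0.33 ± 0.072) and 1.40-fold lower than frozen cells (-0.49 ± 0.072). Frozen cells stood 0.15 ± 0.072 above fresh cells, a gap that the fit did not call and that was 0.01 after median centring. Before normalization these states overlapped, at 330.4 to 371.6 intensity units on fresh and 301.8 to 395.2 on frozen arrays. Their means then stood in the other order, at 346.1 in fresh and 341.0 in frozen cells. The place of frozen cells in the order of ARRDC3 is thus not settled. The second probe, ILMN_2198516, lay at the limit of detection, with detection on 4 of 9 arrays and signals between 62.8 and 76.8 intensity units. It differed by -0.10 ± 0.11 in replated against fresh cells (95% interval -0.35 to 0.14), an interval that holds the value of the first probe. In replated against frozen cells it differed by 0.02 (-0.23 to 0.27) and in frozen against fresh cells by -0.13 (-0.37 to 0.12), and neither interval holds the value of the first probe.

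For the other alpha-arrestins the arrays of the states overlapped in every comparison. ARRDC4, which like TXNIP restrains glucose uptake, had 2 probes detected on all 9 arrays. The brighter one, ILMN_1660544, had a mean normalized log2 signal of 6.64 ± 0.23 on fresh, 6.73 ± 0.16 on frozen and 6.66 ± 0.061 on replated arrays (SD, n = 3). Its difference was 0.10 ± 0.12 for frozen against fresh cells (95% interval -0.16 to 0.36) and 0.03 ± 0.12 for replated against fresh cells (-0.23 to 0.29). The interval for frozen cells leaves out a decrease of the size seen for TXNIP, although that difference between the genes was not itself tested. The dimmer probe ILMN_2184064 spread more, from 75.1 to 106.7 intensity units, and its arrays overlapped in all 3 comparisons. ARRDC1, which recruits the ESCRT protein TSG101 to bud vesicles from the plasma membrane, averaged 6.32 ± 0.22, 6.41 ± 0.15 and 6.25 ± 0.14 in fresh, frozen and replated cells (SD, n = 3). ARRDC2 had 3 probes. The one detected everywhere, ILMN_1655612, averaged 6.62 ± 0.071, 6.55 ± 0.063 and 6.67 ± 0.075 in the same order, and followed TXNIP in direction with overlapping arrays. The others were detected on 2 arrays (ILMN_1710229) and on 0 (ILMN_1715181), with scores down to 0.08432, and were not tested.

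MLXIP, the gene of MondoA itself, was not measurable with this array. Its probe, ILMN_1693987, was detected on 0 of 9 arrays, with signals from 54.5 to 68.1 intensity units and scores from 0.29776 to 0.88669. The array therefore shows neither its level nor a difference.

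On the normalized scale neither measured sestrin followed the order of states seen for DDIT4. SESN1 (probe ILMN_1800626) read 396.6, 384.3 and 385.1 intensity units on the fresh arrays, 388.5, 358.4 and 388.6 on the frozen arrays and 413.6, 409.9 and 502.6 on the replated arrays. Replated arrays lay above fresh arrays throughout, by 0.23 ± 0.087 on the log2 scale, which the fit did not call. Frozen arrays overlapped with both other states on the normalized scale. Their mean stood 0.13 ± 0.087 above the fresh mean, which was not called either. Before normalization the SESN1 means were 378.5 in frozen, 388.7 in fresh and 442.0 in replated cells, which is the order of DDIT4. The place of frozen cells in the order of SESN1 is thus not settled. SESN3 (probe ILMN_1694027) averaged 7.76 ± 0.086 on fresh, 7.66 ± 0.040 on frozen and 7.74 ± 0.10 on replated arrays (SD, n = 3). Its arrays overlapped in all 3 comparisons, with a difference of -0.10 ± 0.076 for frozen against fresh cells (95% interval -0.27 to 0.07). SESN2, the sestrin known to bind leucine, was detected on 0 of 9 arrays (probe ILMN_1751598, 58.5 to 71.2 intensity units, scores from 0.69433 to 0.90777).

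In the fit across all probes, limma called 2 of the 10 tested member probes between frozen and fresh cells at a Benjamini-Hochberg adjusted p under 0.05, TXNIP and DDIT4, both lower, where 1.02% of all probes were called, 0.486% higher and 0.53% lower. The call of DDIT4 was lost when fresh replicate 2 or fresh replicate 3 was left out and when only both compared states were fitted. Between replated and fresh cells 3 were called, TXNIP and DDIT4 higher and ARRDC3 lower, against 4.13% of all probes, 2.22% higher and 1.91% lower. The TXNIP and ARRDC3 calls there were lost after median centring and when only both compared states were fitted. The count of 3 fell to 1 without any 1 of the fresh arrays or without replated replicate 1, to 2 without replated replicate 2 and to 0 without replated replicate 3. Between replated and frozen cells the same 3 probes were called, against 11.6% of all (6.25% higher and 5.32% lower), whichever array was left out. For 3, 4 and 3 of the 10 member probes the compared states had separate ranges, against 22.4%, 25.6% and 33.8% of all probes. The median log2 difference of the member probes was near 0 in each comparison, and the median size regardless of sign was 0.11, 0.10 and 0.11, beside 0.10, 0.10 and 0.13 over all probes. As the members were chosen with these comparisons known, nothing is read from the counts.

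**Figure D3:**
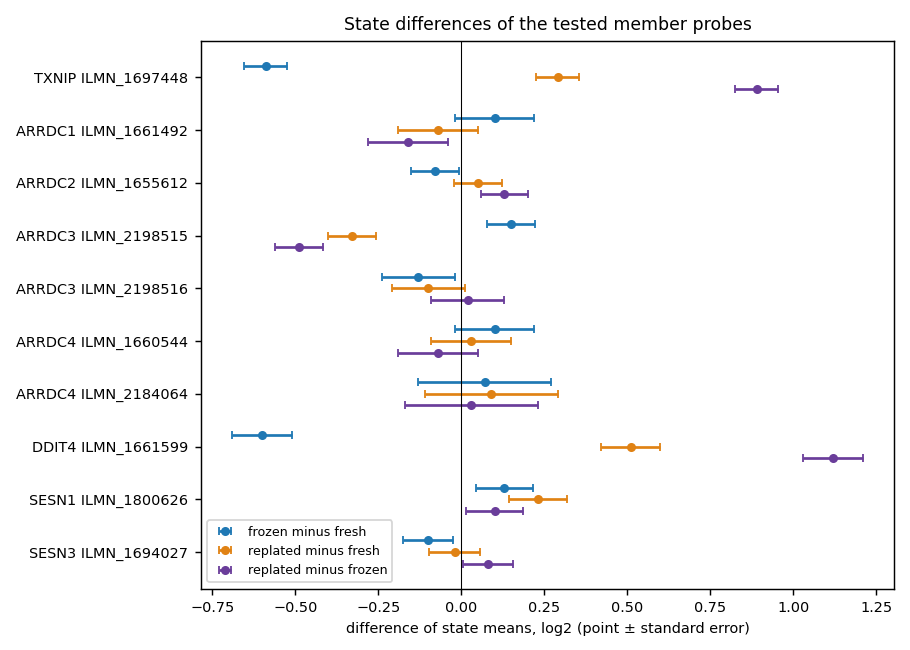
Differences of state means on the log2 scale for the 10 tested member probes (points, with the standard error from the fit across all probes), in 3 colours for the 3 comparisons. TXNIP and DDIT4 lie at -0.59 and -0.60 for frozen against fresh cells and at 0.29 and 0.51 for replated against fresh cells, while ARRDC3 on its brighter probe lies at -0.33 in the latter.

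The genes whose pattern was nearest to that of TXNIP or DDIT4 were ranked by Pearson's r of normalized log2 signal over the 9 arrays, among 10911 genes. The points share their states, so r mostly reflects the 3 state means, and it is given as a description. Nearest to TXNIP were GDI2, a regulator of Rab proteins (r = 0.993), the chemokine receptor gene CCR2 (0.989), the Fc receptor gene FCGR1A (0.975, on a probe that may bind related copies), CRIP1 (0.970) and ATP6AP2, an accessory subunit of the vacuolar proton pump (0.969). Most of these spanned less than TXNIP. GDI2 stood 0.37 apart between replated and frozen cells, while CCR2, at 0.97, spanned slightly more than the 0.89 of TXNIP. The genes most opposite to TXNIP were FOSB, DUSP1 and FOS, immediate early genes of the AP-1 and MAP kinase response, each with r = -0.993. FOSB was 3.47 higher on the log2 scale in frozen than in fresh cells, DUSP1 3.73 and FOS 1.63. Against fresh cells, replated cells differed by -2.04, -1.88 and -1.04.

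Nearest to DDIT4 were ABCB10, a mitochondrial transporter gene (r = 0.984), NAPEPLD, an enzyme of N-acylethanolamine synthesis (0.979), RSRP1 (0.975), the oxysterol-binding protein gene OSBPL11 (0.973) and CRIP1 (0.972), the last also near TXNIP. RSRP1 stood 0.78 apart between replated and frozen cells and OSBPL11 0.44, against 1.12 for DDIT4. Most opposite were ZNF669 (r = -0.988), SAAL1 and COL8A2 (both -0.983). Among the members themselves TXNIP and DDIT4 had an r of 0.956, and ARRDC3 had -0.880 with TXNIP and -0.930 with DDIT4. ARRDC2 had 0.666 with TXNIP, SESN3 0.452, SESN1 0.147, ARRDC4 -0.281 and ARRDC1 -0.389.

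**Figure D4:**
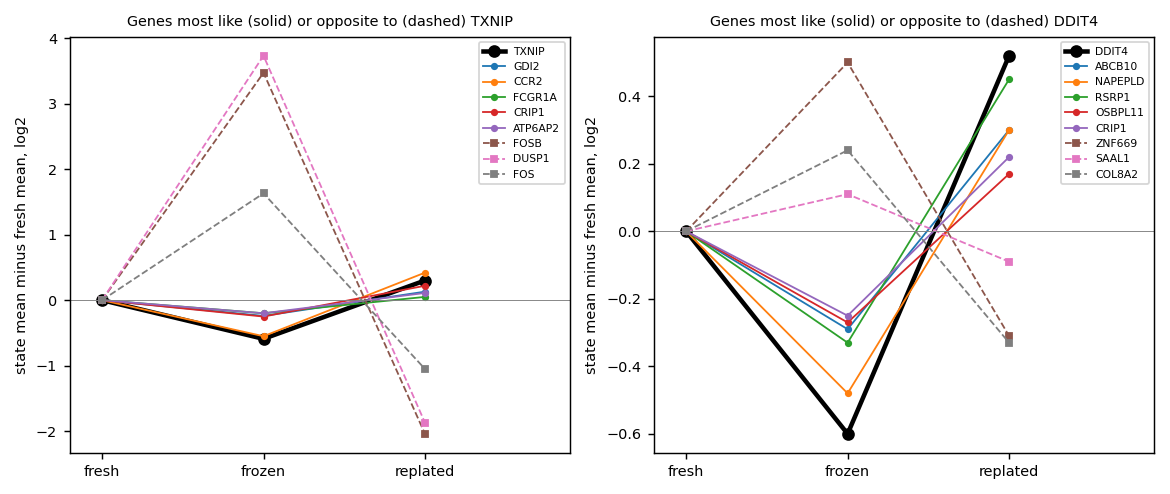
State means minus the fresh mean (log2) of TXNIP (left) and DDIT4 (right), drawn in black, with the 5 genes of most similar (solid) and the 3 of most opposite pattern (dashed) over the 9 arrays. FOSB and DUSP1 run from 3.47 and 3.73 in frozen cells to -2.04 and -1.88 in replated cells, a far wider span than that of TXNIP.

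The partners of TXNIP and MondoA were compared next, with each gene given by its brightest tested probe. Of 17 tested genes of the MLX network and of the glucose response, 0 were called between frozen and fresh cells. Replated against fresh cells showed 2 that rose and 3 that fell. The desaturase gene SCD rose 1.45-fold (0.54 ± 0.087, adjusted p = 0.00961), while the G protein regulator RGS16 fell 1.97-fold (-0.98 ± 0.15, adjusted p = 0.00756), the TGF-beta-induced factor KLF10 1.52-fold (adjusted p = 0.0102) and the clock repressor BHLHE40 1.40-fold (adjusted p = 0.0234). RGS16, KLF10 and BHLHE40 are known ChREBP or MondoA targets in other cells. In frozen against fresh cells they differed by -0.04, 0.03 and 0.14 without a call. In replated against fresh cells they lay opposite to TXNIP, while the 2 genes that rose, SCD among them, went with it. Control by MondoA was not tested. The RGS16 probe was detected on 2 of 3 replated arrays, and its difference ran from -1.86 to -0.53 over the processing alternatives, called in 9 of 9. The BHLHE40 call was lost without fresh replicate 1 or 2 or replated replicate 1 or 3. The other KLF10 probes differed by -0.20 and -0.48 and were not called. In replated against frozen cells 4 rose and 3 fell. SCD differed by 0.58 and BHLHE40, KLF10 and RGS16 by -0.63, -0.64 and -0.94, with adjusted p between 0.00341 and 0.00464. Of the other KLF10 probes, 1 differed by 0.02 without a call and 1 by -0.51 (adjusted p = 0.0347). MLX, the partner of MondoA, differed by 0.05 ± 0.075 in replated against fresh cells (adjusted p = 0.747). The 17 genes had a median log2 difference of 0.05 in each comparison with replated cells.

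Thioredoxin, glucose transporter and hexokinase genes showed 0 calls among 8 tested in frozen and in replated against fresh cells. TXN, which encodes the thioredoxin bound by TXNIP, differed by 0.06 ± 0.060 and 0.01 ± 0.060 in the 2 comparisons, and the glucose transporter gene SLC2A3 by -0.12 ± 0.10 and 0.11 ± 0.10. In replated against frozen cells HK2, hexokinase 2, was called lower (-0.26 ± 0.071, adjusted p = 0.0389), but its other probe was called higher (0.41, adjusted p = 0.0388), so that its direction is not settled, and the call on the first probe held in 3 of 9 fits that left out 1 array (-0.32 to -0.13 over the processing alternatives). Of 7 arrestins and ubiquitin ligases that act with them, ARRB1, beta-arrestin 1, rose in replated against fresh cells (1.34-fold, adjusted p = 0.00721) and against frozen cells (1.19-fold, adjusted p = 0.0294). The other ARRB1 probes differed by -0.09 and -0.03 in the former comparison and by -0.16 and -0.12 in the latter, without a call. The ARRB1 call in the latter was lost without frozen replicate 2 or 3 or any replated array. ITCH, the ligase that marks TXNIP for degradation, differed by -0.11 ± 0.076 between replated and fresh cells (adjusted p = 0.448).

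Genes of the mTORC1 machinery on which DDIT4 and the sestrins act were compared in the same way. Over all probes 1.02%, 4.13% and 11.6% were called between frozen and fresh, replated and fresh, and replated and frozen cells. Of the 35 genes tested, 0 were called between frozen and fresh cells. In replated against fresh cells 1 fell, the KICSTOR subunit gene ITFG2 (1.31-fold, adjusted p = 0.0267). In replated against frozen cells 2 rose and 3 fell. TSC1, the scaffold of the TSC complex, rose 1.37-fold (adjusted p = 0.0313) and RPTOR 1.25-fold (adjusted p = 0.0278), while ITFG2 fell 1.33-fold (adjusted p = 0.0102) and MLST8, a shared mTOR subunit, 1.24-fold (adjusted p = 0.0313). MTOR was the remaining gene, named after its values were seen (-0.25 ± 0.069, adjusted p = 0.0416). The ITFG2 call against fresh cells and the RPTOR, MLST8 and TSC1 calls each held in 4 of 9 fits that left out 1 array. The RPTOR probe was detected on 1 of 3 frozen arrays, its difference ran from 0.16 to 0.96 over the processing alternatives with a call in 5 of 9, that of MLST8 ran from -0.34 to -0.18, and the other TSC1 probe differed by 0.09. DDIT4L, the paralog of DDIT4, differed by 0.38 ± 0.11 in frozen and by 0.37 ± 0.11 in replated against fresh cells (adjusted p = 0.133 and 0.0999), without the opposite directions of DDIT4. Of 11 AMPK subunit and upstream kinase genes, CAB39L was called higher in replated against fresh cells (1.32-fold, adjusted p = 0.0413) and PRKAA1, a catalytic subunit, in replated against frozen cells (1.38-fold, adjusted p = 0.0142), a call lost without replated replicate 3. The call of CAB39L was lost whichever array was left out, with adjusted p above 0.05 in 9 of 9 cases. The other CAB39L probe differed by -0.29. The other PRKAA1 probe differed by 0.24 in replated against frozen cells and was not called.

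Factors known to act on the promoters of DDIT4, the sestrins or TXNIP gave 0 calls among 13 tested between frozen and fresh cells, where ATF4 differed by 0.07 ± 0.069 and HIF1A by -0.13 ± 0.11. In replated against fresh cells EPAS1, the gene of the hypoxia factor HIF-2 alpha, was 0.83 ± 0.085 higher on the log2 scale, or 1.77-fold (adjusted p = 0.000849), and FOXO4 1.34-fold (adjusted p = 0.047). Both also rose in replated against frozen cells (EPAS1 1.54-fold, adjusted p = 0.00212; FOXO4 1.36-fold, adjusted p = 0.0226). The FOXO4 call against fresh cells held in 1 of 9 fits that left out an array, and that against frozen cells in 6. Over the processing alternatives these differences ran from 0.23 to 0.69 and from 0.24 to 0.71.

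Genes that glucocorticoids or FOXO factors are known to induce, as they do DDIT4 and TXNIP, did not move as a block. Of 12 tested, 2 rose in frozen against fresh cells, opposite to DDIT4. Control of DDIT4 or TXNIP by glucocorticoids or FOXO factors was not tested. TSC22D3, the glucocorticoid-induced leucine zipper, rose 1.85-fold (0.89 ± 0.13, adjusted p = 0.0108), and its other probe also rose (0.65, adjusted p = 0.0287). The call of the first TSC22D3 probe was lost on the values processed by the authors. It held in 9 of 10 processing alternatives and in 9 of 9 fits that left out an array. IRS2, an insulin receptor substrate, rose 1.30-fold (adjusted p = 0.0488), a call held in 1 of 9 fits that left out an array, with 0.24 to 0.39 over the processing alternatives. FKBP5, a classical glucocorticoid target, differed by -0.26 ± 0.077 (adjusted p = 0.132). In replated against fresh cells the FOXO target CCNG2, cyclin G2, rose 1.61-fold (0.68 ± 0.12, adjusted p = 0.0116), with 0.16 and 0.31 on its other probes, which were not called, and the call was lost without replated replicate 3. In replated against frozen cells 2 rose and 4 fell, with CCNG2 1.86-fold higher (adjusted p = 0.0015), TSC22D3 2.13-fold lower (adjusted p = 0.000726), the kinase gene SGK1 1.72-fold lower (adjusted p = 0.00607) and KLF9 1.34-fold lower (adjusted p = 0.0074). CCNG2 thus followed the order of TXNIP and DDIT4 in this comparison on its brightest probe, and TSC22D3, SGK1 and KLF9 the reverse. The other CCNG2 probes differed by 0.22 and 0.27 in it and were not called.

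**Figure D5:**
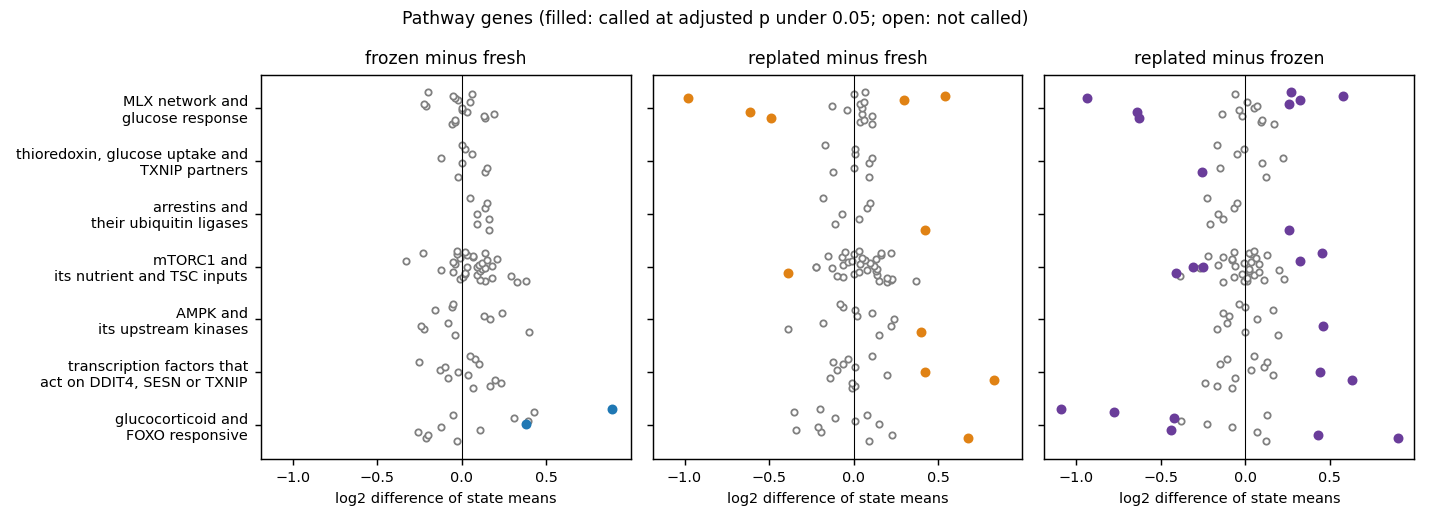
Log2 differences of state means for the genes of 7 pathway lists (rows), 1 point per gene by its brightest tested probe, in the 3 comparisons (panels). Filled points passed an adjusted p under 0.05: 2 of 103 genes between frozen and fresh cells, 11 between replated and fresh cells and 23 between replated and frozen cells.

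Those 2, 11 and 23 called genes of 103 in the pathway lists stand beside 1.02%, 4.13% and 11.6% of all probes called in the same comparisons. The units differ, since each gene is given by its brightest tested probe and the shares include dim probes. With a detection p under 0.01 required on all arrays, 366, 1199 and 2522 of 11951 probes were called. The pathway genes then gave 4, 10 and 24 calls of 85. As the lists were chosen with earlier results of these data known, nothing is read from these counts. The share of called probes that were higher depended on the scaling in the comparisons with frozen cells. Between frozen and fresh cells 88 probes were called higher and 96 lower, but 70 and 757 after centring each array on the median of all its probes and 200 and 87 after centring on the tested probes. Between replated and frozen cells the split was 1132 and 963, against 2028 and 369 and against 918 and 1479 under the same centrings. TXNIP and DDIT4 kept the order frozen, fresh, replated in all 20 settings tried, the main one included. ARRDC3 kept the reverse order in them on its brighter probe. Settings that changed only the filter, added a replicate block or fitted only both compared states reused the same normalized values. Such settings could not alter the order. The members were also chosen on these differences, so the count of settings is not separate support.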

How the data were processed

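RNA of 9 THP-1 samples was labelled as biotinylated cRNA and read on Illumina bead arrays, per the labels. Per the file headers, each array has a deposited column of non-normalized signal (linear intensity) beside a detection column. The authors head that detection score as a p value. Sorted by signal within an array it showed 0 falls, so it was used as 1 minus the detection p. A second deposited table holds intensity values processed by the authors (lowest 1.45, highest 29548, rank correlation with the signal of the same array 1). Software and background method: not given in the sources used here.

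Values were corrected with limma 3.58.1 (neqc, normexp with an offset of 16, quantile normalization, log2) in R 4.3.3, and folds of dim probes are therefore understated. Probes with a detection p under 0.05 on at least 3 arrays were fitted with lmFit and eBayes over all 9 arrays (residual df 6, prior df 4.65), with Benjamini-Hochberg adjustment over 18102 probes. Precision is limited by having 3 arrays per state. Of the platform annotation, 27578 probes have 1 symbol, 13 several and 21212 none listed. Symbols were updated through Entrez ID (27541) or accession (12) with the GRCh38.p14 gene table, and promoter windows of all 10 members were found in its RefSeq sequences.

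Members and lists were chosen with earlier results of these data known. Genes named were the members, up to 4 called genes per list and comparison with the lowest adjusted p, the 5 most similar and 3 most opposite genes for TXNIP and DDIT4, and CD14 and LYZ. A few non-called list genes were added after their values were seen. The fit was tested on simulated data of 18102 probes with 200 changed. It recovered 71.6% of 1.5-fold and 96.4% of 2-fold changes between frozen and fresh arrays. Between replated and fresh arrays the shares were 72.0% and 96.8%, and between replated and frozen arrays 71.2% and 95.2%. Where the simulated fold was only 1.2, most changes were missed, and 10%, 10.4% and 5.2% were found in the same order. The percentage of false calls was 4.27, 5.29 and 6.09. A missing call therefore does not show that a gene was unchanged. The alternatives tried changed the offset or omitted the background step, centred arrays on medians, took the values processed by the authors, changed the filter, weighted arrays, added a replicate block, fitted only both compared states, or left out each array in turn.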

Additional observations from a re-analysis of the deposited data

How the results depend on the processing

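TXNIP stayed lower in frozen than in fresh cells in every alternative run, at -0.72 after median centring, where the median of all tested probes was -0.104 against 0.006 in the reported fit. Left-out arrays gave -0.63 to -0.57. In replated against fresh cells it lay between 0.26 and 0.32 without 1 array, and in replated against frozen cells at 0.98 after median centring and between 0.86 and 0.91 without 1 array. DDIT4 in frozen against fresh cells was -0.43 with an offset of 50, -0.40 with no background correction, -0.74 after median centring and -0.78 on the authors' values (-0.70 to -0.53 without 1 array). In replated against fresh cells it was 0.38 with no background correction (0.49 to 0.54 without 1 array). In replated against frozen cells it was 0.83, 0.78, 1.23 and 1.38 under the same 4 settings (1.04 to 1.22 without 1 array).

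Member probes called between frozen and fresh cells numbered 1 when only these states were fitted (1 to 2 without 1 array). Between replated and fresh cells they numbered 1 after median centring, with the replicate block and with only the 2 states (0 to 3 without 1 array), and between replated and frozen cells 3 throughout. Calls among all probes between frozen and fresh cells were 542 with offset 50, 565 with no background correction, 827 after median centring, 287 after centring on tested probes (chosen after seeing the data), 103 on the authors' values, 366 with the stricter filter, 104 with the replicate block and 54 with only these states (52 to 139 without 1 array). Between replated and fresh cells they were 1333, 1305, 468 and 427 with offset 50, no background correction, median centring and the authors' values, 1199 with the stricter filter and 444 with the replicate block (245 to 696 without 1 array). Between replated and frozen cells they ran from 1011 to 2028 without 1 array. Pathway genes called between frozen and fresh cells were 4 with offset 50, no background correction or the stricter filter, all higher as were the 2 reported, 4 after median centring (1 higher and 3 lower), 0 on the authors' values, and 1 with array weights, the replicate block or only these states (1 to 2 without 1 array). Between replated and fresh cells they were 7 after median centring or with the replicate block (5 to 11 without 1 array), and between replated and frozen cells 13 to 23 without 1 array. The causes were not tested.

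Replicate numbers did not pair the arrays. Deviations from the state means correlated between -0.048 and 0.047 for arrays of the same number and between -0.064 and 0.034 for others. No member that was called changed direction in any alternative, but several alternatives reused the same normalized values and could not reverse a direction. Probes near the negative controls, such as those of MLXIP and SESN2, limit what can be seen.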
